A study of Glycine max with 16 samples.

Results

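The afternoon step is the change in leaf transcripts of field-grown soybean (Glycine max, cultivar 93B15) between 14:00 and 17:00. Its members are 8 libraries, the 4 taken at 17:00 (ZT 11:20, hours and minutes after dawn) and the 4 taken at 14:00 (ZT 8:20), out of 16 libraries in all. The other 8 were taken at 8:00 and 11:00. Each library came from the leaflets of an uppermost fully expanded leaf of a reproductive-stage plant in 1 of 4 open-field plots, with no treatment. Plots served as biological replicates, each with its own sampling day, so plot and day were 1 factor. Every library at 17:00 was paired with the library of the same plot at 14:00. Polyadenylated RNA from whole leaflets was sequenced, so fewer cells of a type and less RNA per cell cannot be told apart.

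In plants, the circadian clock is a set of transcription factors that repress each other in turn. The MYB-like factors of the LHY and CCA1 type are abundant near dawn, the pseudo-response regulators (PRR) follow in sequence during the day, and TOC1 and the evening complex, which holds ELF4 and LUX, are abundant toward dusk. Genes for light harvesting, carbon fixation, nitrate reduction and starch turnover also show diurnal changes in leaves, and the hours before sunset close the light period of that cycle.

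Counts assigned to genes ranged from 19335877 to 22317152 in the 8 libraries at 14:00 and 17:00. Transcript abundance is given as TMM-normalized counts scaled to a common library size, written CPM. Leaf mesophyll markers were abundant at both times. The Rubisco small subunit locus Glyma.13G046200 had 4488 to 9835 CPM at 14:00 and 4105 to 8084 CPM at 17:00, and the 12 chlorophyll a/b binding loci summed to 8426 to 20410 CPM and 3792 to 10160 CPM. Of 51 loci for secondary walls and vascular tissue, 0 were called. Their sum was 776.1 to 1861 CPM at 14:00 and 325.3 to 1266 CPM at 17:00. The cellulose synthase locus Glyma.06G324300 alone had 213.6 to 662.7 CPM at 14:00. Plot 4 stood apart in some members, picked after their values were seen. At 14:00 Glyma.09G051100 had 4.98 CPM in plot 4 and 20.7 to 35.7 CPM in the other plots. Glyma.06G307900 went the other way, with 153.9 CPM in plot 4 against 17.9 to 37.3 CPM. All of the 4 phloem loci were low (0.154 to 1.82 CPM summed at 14:00, 0.298 to 3.18 CPM at 17:00) and 0 were called. Among 3 seed storage loci, the basic 7S globulin Glyma.13G208000 was called higher, from 0.125 to 1.07 CPM (adjusted p = 0.0198). This was 33.3% of the list, against 3.08% over all genes. The 23 loci that match ribosomal RNA varied between libraries, from 1246 to 16320 CPM at 14:00 and from 1116 to 13530 CPM at 17:00, and 0 were called. The part of these lists in the results below was not tested. Lists made by match hold only loci described in the part of the study's gene table held, and not whole gene families. Those loci are ones with high variation between plots.

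Transcript abundance moved in both directions between 14:00 and 17:00. A gene was called when its adjusted p was below 0.05 and its change was 2-fold or more. By this rule 1110 of 36059 genes were higher at 17:00 (3.08%) and 1457 were lower (4.04%), or 7.12% in either direction. The balance turned with scaling by library totals alone, which gave 1317 higher and 1232 lower. Genes past the adjusted p alone numbered 2301 (6.38%) in the upward direction and 2958 (8.2%) in the downward direction, 14.6% in all. Most changes were moderate: 217 of the rises and 390 of the falls were at least 4-fold, and 23 rises and 18 falls were at least 16-fold. The groups of genes differed in abundance at 14:00. The genes that rose had a median of 1.98 CPM at 14:00 and 5.72 CPM at 17:00, and together made up 1.61% and 4.85% of the CPM. The genes that fell had a median of 13.4 CPM at 14:00 and 4.45 CPM at 17:00. Their share of the CPM went from 10.1% to 3.35%. Because genes were picked by their change between these times, these shifts follow from the call. The call also bears on the gap at 14:00.

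**Figure D1:**
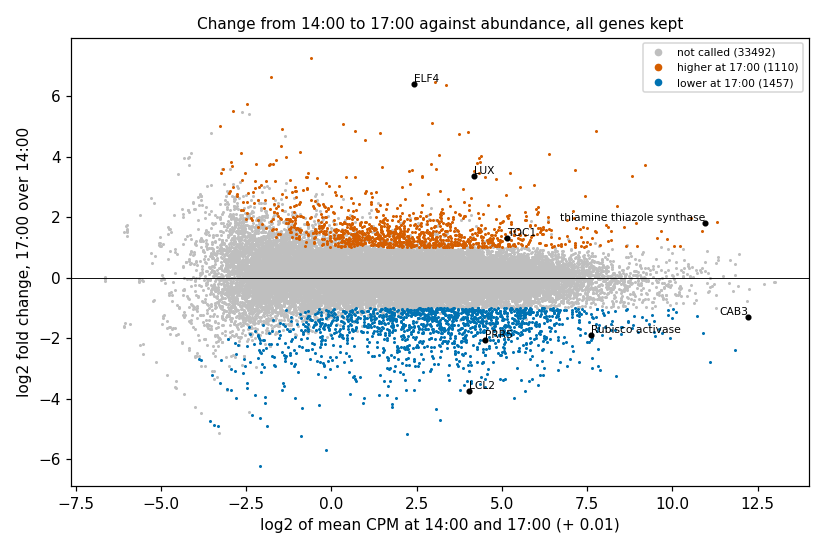
Change from 14:00 to 17:00 (log2 fold change, vertical axis) against mean abundance at both times (log2 CPM, horizontal axis) for all 36059 genes kept, 1 point a gene. The 1110 genes called higher (orange) and the 1457 called lower (blue) lie beyond a log2 fold change of 1, and 8 loci named in the text are marked in black.

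The size of the step and the number of calls differed between plots. Since genes were called on the 4 plots together, their values per plot are a description and no separate support. The median change of the genes called higher was 1.37, 1.59, 1.11 and 1.63 on the log2 scale in plots 1 to 4, and that of the genes called lower was -1.32, -1.75, -1.42 and -1.70. Across all genes kept, the steps of any 2 plots correlated with an r of 0.446 to 0.57, where genes are not independent replicates. The libraries did not overlap between the times for 68.1% of the rises and 87.9% of the falls, and over all genes for 7.78% upward and 10.7% downward. The count of rises was the less stable: it was 630 without plot 1, 702 without plot 2, 907 without plot 3 and 591 without plot 4, whereas falls numbered 1259 to 1412. With plot left out of the model, 716 genes were higher and 1253 lower.

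The files do not pair locus identifiers with gene names. Names below come from the study's text, from a list of 37 loci by identifier or from best matches in the part of its gene table held. Among clock loci the study's text gives the identifier of PRR5 alone. Where neither text nor match gives a name, it rests on that list. Values of only 4 loci without a name are given. Glyma.11G229700 had the largest rise among genes with at least 10 CPM at the higher time and the same direction in all plots. It stood at 0.288, 0.0536, 0.0502 and 0.309 CPM in plots 1 to 4 at 14:00 and at 16.7, 7.10, 16.9 and 23.7 CPM at 17:00 (log2 fold change 6.46, SE 0.34, where SE is the standard error, adjusted p = 9.83e-06). At 8:00 and 11:00 its mean was 0 CPM. Glyma.08G209300 went from 0.329, 0.107, 0.1005 and 0.541 CPM to 15.7, 9.26, 20.3 and 35.5 CPM (log2 fold change 6.37, adjusted p = 9.69e-06). The largest fall was that of Glyma.15G229400, from 16.6, 23.1, 15.2 and 15.6 CPM to 0.983, 0.55, 0.596 and 0.639 CPM (log2 fold change -4.69, SE 0.39, adjusted p = 3.15e-06). Glyma.08G240100 fell from 10.4, 26.4, 14.4 and 12.2 CPM to 0.826, 0.917, 0.681 and 0.548 CPM (log2 fold change -4.34, adjusted p = 3.22e-07). In each of these 4 loci the libraries of the 2 times did not overlap. The 12 largest rises spanned log2 fold changes of 3.81 to 6.46 and included 3 loci with a name or match, and the 12 largest falls spanned -4.69 to -3.43 and included 1.

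Of 12 clock loci, 4 rose (33.3%, against 3.08% over all genes), 3 fell (25%, against 4.04%) and 5 were not called. The study reports most clock genes shown as changing over the day in these same libraries, so these shares are no separate support. Each of the 4 that rose had libraries at 17:00 above all those at 14:00. ELF4 (Glyma.18G027500), a component of the evening complex, was close to the detection limit at 14:00, with 0.164, 0.0536, 0.1005 and 0.154 CPM in plots 1 to 4 (11 counts in all), and reached 7.63, 4.72, 12.4 and 17.7 CPM at 17:00. This was a log2 fold change of 6.38 (SE 0.47, adjusted p = 9.61e-07), and its mean had been 0.28 CPM at 8:00 and 0.119 CPM at 11:00. LUX (Glyma.12G060200), the DNA-binding partner of ELF4, rose from 3.78, 1.61, 2.26 and 6.02 CPM to 30.4, 22.7, 34.5 and 44.1 CPM (log2 fold change 3.36, SE 0.34, adjusted p = 1.68e-05). ELF4 and LUX were thus higher in every plot. LUX had also risen from 11:00 to 14:00, by 3.39 on the log2 scale (adjusted p = 0.000533), while the value for ELF4 was 0.23 (adjusted p = 0.885), and this difference between the loci was not tested. The Jumonji locus Glyma.11G130600, of a family that includes histone demethylases, rose from 12.5, 1.07, 6.38 and 8.19 CPM to 79.5, 79.1, 76.3 and 38.2 CPM (log2 fold change 3.45, SE 0.44, adjusted p = 0.000136). TOC1 (Glyma.04G166300), a repressor of the dawn genes in Arabidopsis, rose from 26.6, 11.0, 19.3 and 25.9 CPM to 58.2, 32.8, 61.3 and 49.4 CPM (log2 fold change 1.32, SE 0.21, adjusted p = 0.000903).

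The dawn factors fell in all plots. LCL2 (Glyma.03G261800), a relative of LHY and CCA1, fell from 43.0, 25, 33.3 and 19.7 CPM to 3.46, 1.97, 2.34 and 1.19 CPM (log2 fold change -3.75, SE 0.25, adjusted p = 4.98e-07). LCL1 (Glyma.07G048500) fell from 106.1, 107.6, 107.0 and 81.3 CPM to 21.4, 11.0, 21.5 and 12.4 CPM (log2 fold change -2.60, SE 0.26, adjusted p = 1.47e-05). Both continued a fall that had begun earlier, from means of 1050 CPM for LCL2 and 445 CPM for LCL1 at 8:00. PRR5 (Glyma.03G261300) was near a mean of 36.3 CPM at 14:00 and 36.7 CPM at 8:00. It fell from 42.6, 34.8, 34 and 33.8 CPM to 10.9, 7.61, 10.5 and 6.48 CPM (log2 fold change -2.06, SE 0.52, adjusted p = 0.0159), a call that did not hold without plot 1, 3 or 4 (adjusted p = 0.0867, 0.0572 and 0.0569), although the libraries did not overlap.

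For the other 5 clock loci the data give bounds rather than a call, as 95% intervals of the log2 fold change. PRR7 (Glyma.10G048100) had means of 123.9 CPM at 14:00 and 117 CPM at 17:00 (interval -0.62 to 0.51). GIGANTEA (Glyma.20G170000), which promotes flowering in long days in Arabidopsis, had 124.6 and 121.8 CPM (interval -0.86 to 0.87). ZEITLUPE (Glyma.09G056100), part of a ubiquitin ligase that targets TOC1 and PRR5 in Arabidopsis, had 34 and 36 CPM (interval -0.30 to 0.48). These 3 intervals left out a change of 2-fold, while those of the next 2 did not. PRR9 (Glyma.06G136600) had 69.2 and 86.8 CPM (interval -0.60 to 1.37). PRR3 (Glyma.U034500) was lower in each plot, at 63.0, 93.1, 67.0 and 86.3 CPM against 50.9, 63.7, 33.8 and 21.5 CPM, but the values overlapped (log2 fold change -0.83, SE 0.38, adjusted p = 0.159, interval -1.69 to 0.02).

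**Figure D2:**
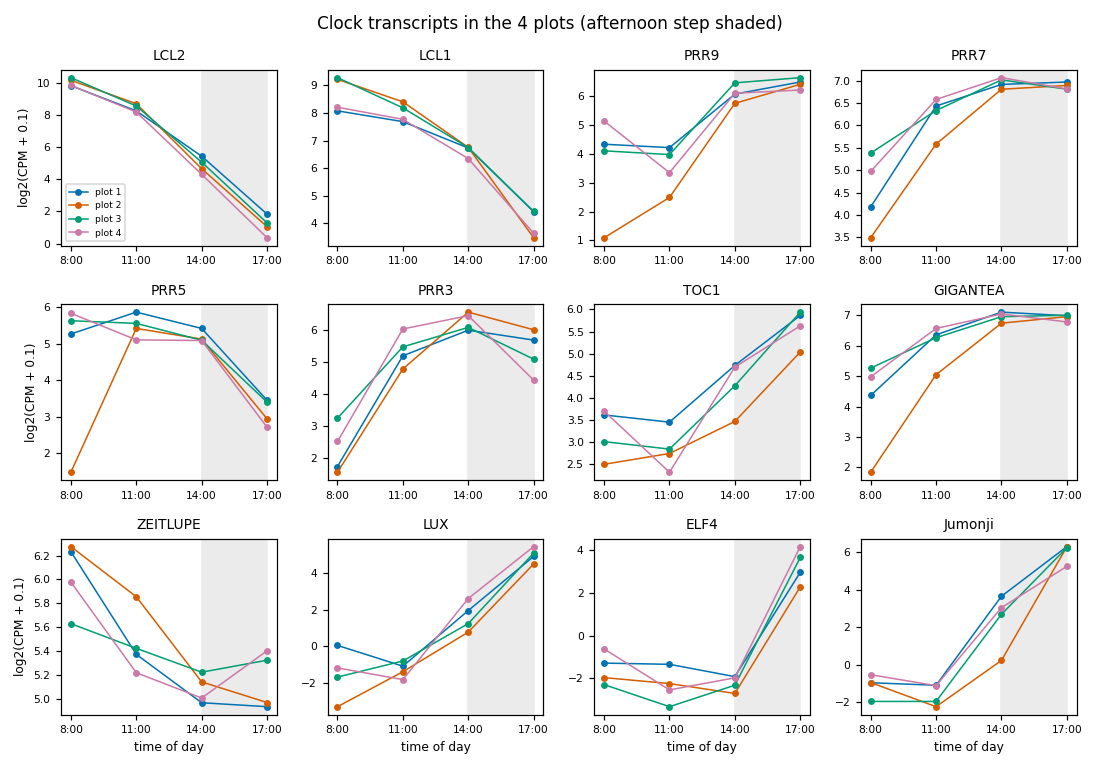
Abundance of the 12 clock transcripts, as log2(CPM + 0.1), at the 4 times of day in each of the 4 plots (1 line a plot), with the afternoon step shaded. ELF4, LUX, Jumonji and TOC1 rise in every plot between 14:00 and 17:00, LCL1, LCL2 and PRR5 fall in every plot, and PRR7 (means of 123.9 and 117 CPM) and GIGANTEA (124.6 and 121.8 CPM) are not called.

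Among light-harvesting genes, 1 of 12 chlorophyll a/b binding loci known by their match fell (8.33%, against 4.04% over all genes) and 0 rose. Over all loci with a named match, 3.02% fell. The chlorophyll a-b binding protein 3 locus Glyma.08G082900 stood at 5891, 8309, 8591 and 4117 CPM in plots 1 to 4 at 14:00 and at 3029, 3279, 3294 and 1383 CPM at 17:00 (log2 fold change -1.30, SE 0.18, adjusted p = 0.000311). All libraries at 17:00 lay below those at 14:00. Of the other 11, 3 passed the adjusted p alone with smaller decreases: Glyma.05G128000 (5944 to 3410 CPM, log2 fold change -0.79, adjusted p = 0.00836) and the LHCII type III loci Glyma.12G219300 (487.4 to 272 CPM, -0.81, adjusted p = 0.00455) and Glyma.13G282000 (491.4 to 251 CPM, -0.94, adjusted p = 0.00546), which were named after their values were seen. CP26 (Glyma.09G154700), also of the 12, had 694.9 and 770.7 CPM (log2 fold change 0.18, adjusted p = 0.421). The median log2 fold change of the 12 was -0.11, against 0.02 over all genes kept. Outside that list, the chlorophyll a/b binding locus Glyma.01G115900, listed by identifier, had means of 1466 and 1474 CPM (log2 fold change 0.06, interval -0.38 to 0.51).

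Of 7 photosystem and electron transport loci, 4 fell (57.1%, against 4.04% over all genes) and 0 rose. The study names these loci as changing over the day in these same libraries, so the share is no separate support. The Psb28 locus Glyma.13G127200, for a protein of photosystem II assembly, fell from 95.9, 114.4, 113.3 and 70.9 CPM to 40.2, 41.6, 56.5 and 27.3 CPM (log2 fold change -1.27, SE 0.14, adjusted p = 3.79e-05). The second Psb28 locus, Glyma.10G040600, fell alongside it, from a mean of 45.8 to 21.2 CPM (log2 fold change -1.10, SE 0.13, adjusted p = 7.86e-05). Of the 3 iron-binding electron transport loci, Glyma.17G205000 fell from a mean of 33.1 to 16.3 CPM (log2 fold change -1.03, adjusted p = 0.000464), where the fold was at the threshold and was -0.99 without plot 2 and -0.94 with scaling by library totals alone. Glyma.14G128500 fell from 0.893 to 0.0974 CPM (adjusted p = 0.00839, or 0.0535 without plot 1), and Glyma.15G018000 had 32.3 and 38.6 CPM with no call (adjusted p = 0.253). PsaK (Glyma.09G087700), a photosystem I subunit, had a mean of 137.2 CPM at 14:00 and 83.8 CPM at 17:00 and passed the adjusted p alone (log2 fold change -0.68, adjusted p = 0.00529). Of 8 photosystem loci known by their match, 0 were called, with a median log2 fold change of 0.50. They include Glyma.16G162600, Glyma.16G165200, Glyma.16G165500 and Glyma.16G165800, which are also counted among the chlorophyll a/b binding loci above. The photosystem I subunit O locus Glyma.12G092000 passed the adjusted p alone as a rise, from 27.2 to 44.5 CPM (log2 fold change 0.77, adjusted p = 0.022). It was named after its values were seen. The PsaD locus Glyma.10G249000 had 1683 and 2274 CPM (log2 fold change 0.51, adjusted p = 0.129). PsbD (Glyma.01G153500) had 4.12 and 3.09 CPM (log2 fold change -0.39, adjusted p = 0.345).

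In the C3 cycle, 1 of 4 loci fell (25%, against 4.04% over all genes). The study shows C3 cycle genes picked for change over the day in these same libraries, so the share is no separate support. Rubisco activase (Glyma.14G067000), which removes inhibitory sugar phosphates from Rubisco, fell from 266.2, 352.7, 358 and 254.8 CPM to 100.4, 64.2, 73.3 and 82.9 CPM (log2 fold change -1.90, SE 0.20, adjusted p = 2.06e-05). All libraries at 17:00 lay below those at 14:00. The 3 loci for Rubisco large subunit binding protein, a chaperone of Rubisco assembly, had log2 fold changes of -0.33, -0.49 and -0.17 and were not called (adjusted p = 0.288, 0.0896 and 0.545). The Rubisco small subunit locus had a log2 fold change of -0.21 (adjusted p = 0.447).

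Of 5 chlorophyll synthesis and breakdown loci, 1 fell (20%, against 4.04% over all genes). The study shows genes of this pathway picked for change over the day in these same libraries, so the share is no separate support. Divinyl chlorophyllide reductase (Glyma.13G215400), a late enzyme of chlorophyll synthesis, fell from 10.4, 23.2, 16.8 and 8.57 CPM to 2.79, 2.98, 3.87 and 2.47 CPM (log2 fold change -2.21, SE 0.24, adjusted p = 2.5e-05). The enzymes of the shared tetrapyrrole steps were not called: porphobilinogen deaminase (Glyma.11G094700) had 21.8 and 30.3 CPM (log2 fold change 0.48, adjusted p = 0.0529), uroporphyrinogen III synthase (Glyma.06G037300) had 6.55 and 7.97 CPM (0.30, adjusted p = 0.385) and coproporphyrinogen III oxidase (Glyma.04G192800) had 16.4 and 14.6 CPM (-0.18, adjusted p = 0.628). Chlorophyllase (Glyma.10G003200), which cleaves the phytol tail, had 83.3 to 122.7 CPM at 14:00 and 131.6 to 168.4 CPM at 17:00. Its libraries did not overlap between the times, but the change was not called (log2 fold change 0.49, SE 0.19, adjusted p = 0.0946).

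Among the genes of carbon metabolism, beta-amylase (Glyma.01G203400), an enzyme of starch breakdown, rose in every plot from a level that differed widely between plots. It had 148.7, 13.9, 32.1 and 59.8 CPM in plots 1 to 4 at 14:00 and 241.1, 69.3, 153.1 and 394 CPM at 17:00 (log2 fold change 1.96, SE 0.38, adjusted p = 0.00351). The groups overlapped, and the call rested on the pairing by plot (adjusted p = 0.111 with no replicate block). ADP-glucose synthesis, represented by glucose-1-phosphate adenylyltransferase (Glyma.11G116600), had 20.8 and 10.2 CPM and no call (log2 fold change -0.88, adjusted p = 0.097). The trehalose-6-phosphate synthase locus Glyma.13G092500, for the enzyme that makes a sugar signal, had 0.78, 1.07, 5.43 and 3.09 CPM at 14:00 and 4.48, 6.65, 8.51 and 28.9 CPM at 17:00 (log2 fold change 2.11, adjusted p = 0.0461). That call was lost without plot 1 or 2 (adjusted p = 0.165 and 0.126) and with no replicate block (0.103). Malate synthase (Glyma.17G128000), of the glyoxylate cycle, had 63.1 CPM in plot 4 at 17:00 but 4.56, 0.413 and 0.809 CPM in the other 3 plots, from 0.107 to 2.05 CPM at 14:00 (log2 fold change 4.07, SE 0.90, adjusted p = 0.0082). It was not called without plot 1 (adjusted p = 0.0665).

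Thiamine thiazole synthase (Glyma.10G251500), which makes the thiazole ring of vitamin B1, had the highest abundance among the rises described. It had 930.4, 606.4, 1256 and 931.1 CPM at 14:00 and 2313, 2388, 3556 and 4030 CPM at 17:00, with no overlap (log2 fold change 1.79, SE 0.50, adjusted p = 0.0261). Its rise had begun before, from means of 19.0 CPM at 8:00 and 84.3 CPM at 11:00. With 3 plots the fold was similar, at 1.65 to 1.90 on the log2 scale without plot 1, 2 or 4, but the adjusted p was 0.0758, 0.0584 and 0.081, and it was 0.096 with no replicate block.

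**Figure D3:**
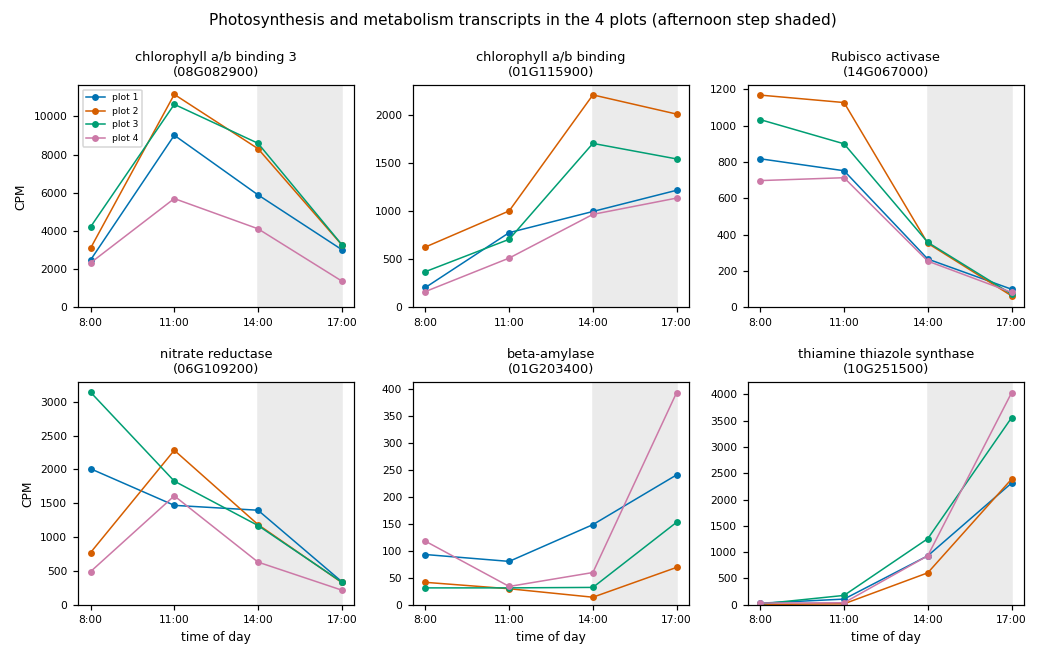
Abundance (CPM) of 6 transcripts of photosynthesis and metabolism at the 4 times of day in each plot (1 line a plot), with the afternoon step shaded. Chlorophyll a/b binding 3, Rubisco activase and nitrate reductase fall in all 4 plots, beta-amylase and thiamine thiazole synthase rise in all 4, and the chlorophyll a/b binding locus Glyma.01G115900 has means of 1466 and 1474 CPM.

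In nitrogen assimilation, 3 of 8 loci fell (37.5%, against 4.04% over all genes) and 0 rose. Over all loci with a named match, 3.02% fell. Nitrate reductase (Glyma.06G109200), which catalyses the first step of nitrate assimilation, fell from 1396, 1184, 1170 and 629.4 CPM to 341, 328.1, 334.4 and 215.5 CPM (log2 fold change -1.81, SE 0.36, adjusted p = 0.00401). Its 2 groups did not overlap. The nitrate transporter locus Glyma.13G167700 fell from 4.89, 1.98, 2.31 and 3.90 CPM to 0.157, 0.0458, 0.809 and 0.274 CPM (log2 fold change -3.29, SE 0.68, adjusted p = 0.0054). Asparagine synthetase (Glyma.14G195000), which makes an amide used for nitrogen transport, fell in each plot, with 88.8 CPM in plot 4 against 6.33 to 14.9 CPM in the others at 14:00 and 40.5 against 0.917 to 4.72 CPM at 17:00 (log2 fold change -1.59, SE 0.38, adjusted p = 0.0124). It was not called without plot 1 or 3 (adjusted p = 0.0509 and 0.0697), nor with no replicate block (0.5). L-asparaginase (Glyma.14G086300), which breaks asparagine down, also fell, from 54.3, 357.8, 116.6 and 39.5 CPM to 26.7, 95.9, 55.3 and 18.9 CPM (log2 fold change -1.31, SE 0.24, adjusted p = 0.00249). Its groups overlapped, and the call was lost with no replicate block (adjusted p = 0.197).

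Of 11 heat shock and chaperone loci, 2 rose (18.2%) and 3 fell (27.3%). The shares were 3.08% and 4.04% over all genes, and 5.92% and 3.02% over loci with a named match. The 2 rises in the list were both dnaJ co-chaperones. Glyma.09G283400 went from 47.5, 24.2, 55.9 and 69.1 CPM to 153.6, 149.2, 204.4 and 387.9 CPM (log2 fold change 2.21, SE 0.40, adjusted p = 0.00194), and Glyma.07G197600 from 33.9, 20.4, 37.4 and 58.5 CPM to 102.4, 88.2, 121 and 195.4 CPM (log2 fold change 1.82, SE 0.34, adjusted p = 0.00235). The falls were at lower abundance. The heat shock factor HSFA2 (Glyma.04G052000) went from 11.9, 12.7, 14.4 and 40.0 CPM to 5.42, 2.25, 7.45 and 3.93 CPM (log2 fold change -1.94, adjusted p = 0.0183), a low molecular weight heat shock protein (Glyma.06G054700) from a mean of 2.03 to 0.346 CPM (-2.47, adjusted p = 0.0157) and BCL-2 associated athanogene 6A (Glyma.07G061500) from 4.44 to 1.34 CPM (-1.49, adjusted p = 0.0278). All 3 of these falls lost their call without plot 4 (adjusted p = 0.0698, 0.0588 and 0.186), the first 2 also without plot 1 (0.0538 and 0.0716) and the last without plot 2 (0.163). Both rises held with each plot left out in turn. With no replicate block the rise of Glyma.07G197600 (adjusted p = 0.0626) and the 3 falls (0.096, 0.0748 and 0.27) were not called.

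Loci for cell wall loosening had 3 of 23 members higher (13%, against 3.08% over all genes) and 0 lower. Of all loci with a named match, 5.92% were higher. All 3 rises in the list were expansins, which loosen the wall of growing cells. Other expansin loci of the list were not called. They were Glyma.05G065700 (log2 fold change 1.95, adjusted p = 0.289), Glyma.19G024200 (0.835, adjusted p = 0.218), Glyma.06G294500 (0.59, adjusted p = 0.747) and Glyma.11G160000 (-0.69, adjusted p = 0.631). Expansin A4 (Glyma.01G050100) rose from 17.8, 14.8, 17.3 and 5.33 CPM to 67.5, 46.4, 104.1 and 14.5 CPM (log2 fold change 1.98, SE 0.38, adjusted p = 0.00307). The second Expansin A4 locus, Glyma.02G109100, had 24.4, 19.3, 27.6 and 19.0 CPM at 14:00 and 108.8, 49.5, 188.4 and 19.1 CPM at 17:00, so that plot 4 barely differed (log2 fold change 1.75, adjusted p = 0.0407). This call was lost without plot 1, 2 or 3 (adjusted p = 0.184, 0.0973 and 0.18). Expansin 2 (Glyma.06G143300, log2 fold change 1.25, adjusted p = 0.0448) was not called with any plot left out (adjusted p = 0.0564 to 0.207) or with no replicate block (0.198). Of 33 auxin loci, 2 rose (6.06%) and 0 fell, where 5.92% of the 828 loci with a named match and 3.08% of all genes rose. The median log2 fold change was 1.14 for the auxin loci, 0.30 for the loci with a match and 0.02 for all genes. The 2 were an auxin-repressed protein (Glyma.13G237000, from a mean of 85.1 to 233.4 CPM, adjusted p = 0.0249) and a 5NG4-like protein (Glyma.13G077800, from 9.21 to 23.0 CPM, adjusted p = 0.0258), and neither held without plot 1, 2 or 3 (adjusted p = 0.0566 to 0.0643 and 0.0639 to 0.0887), nor the first without plot 4 (0.0675), nor either with no replicate block (0.0793 and 0.45).

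Other regulators changed at low abundance. Called higher were 10% of the gibberellin, 28.6% of the ethylene response factor and 40% of the abscisic acid and drought loci. Of the flowering loci 16.7% were higher and 16.7% lower. The shares were 3.08% higher and 4.04% lower over all genes, and 5.92% and 3.02% over loci with a named match. With 5 to 10 loci a list, 1 call weighs heavily. Gibberellin 20 oxidase (Glyma.04G211100), an enzyme of gibberellin synthesis, was the 1 of 10 gibberellin loci called, from 0.493, 0.804, 0.201 and 0.0772 CPM to 1.93, 4.63, 3.45 and 0.183 CPM (log2 fold change 2.64, adjusted p = 0.0184, or 0.116 without plot 3 and 0.0681 with no replicate block). Of 7 ethylene response factor loci, 2 rose. Glyma.10G194200 had 0.904, 0.0536, 0.301 and 0.734 CPM at 14:00 and 1.93, 5.09, 1.66 and 27.7 CPM at 17:00, with plot 4 far above the rest (log2 fold change 3.53, adjusted p = 0.00767, or 0.0955 without plot 4), and ethylene response factor 5 (Glyma.10G036700) went from a mean of 0.175 to 0.755 CPM (adjusted p = 0.0354, or 0.0571 to 0.257 with 1 plot left out and 0.213 with no replicate block). Of 5 abscisic acid and drought loci, 2 rose, the receptor PYL4 (Glyma.07G155500, from 0.698 to 4.67 CPM, adjusted p = 0.0175) and abscisate beta-glucosyltransferase (Glyma.07G215500, from 1.49 to 4.72 CPM, adjusted p = 0.0113). Both lost the call without plot 4 (adjusted p = 0.144 and 0.0518), and PYL4 also without plot 2 (0.114) and the transferase with no replicate block (0.142). The median log2 fold change of these 5 was 0.68. Among 6 flowering loci, CONSTANS-like CO1 (Glyma.13G050300) rose from 0.109 to 1.06 CPM (adjusted p = 0.0152, or 0.0798 without plot 1, 0.131 without plot 4 and 0.111 with no replicate block), the squamosa promoter binding-like locus Glyma.06G238100 fell from 7.06 to 3.31 CPM with overlapping groups (adjusted p = 0.00555, or 0.391 with no replicate block), and the flowering locus T-like 2 locus Glyma.19G108100 had 7.98 and 8.76 CPM (adjusted p = 0.653).

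Further loci with a named match changed as follows. A zinc finger gene (Glyma.10G274300) had the largest rise among these, with a log2 fold change of 4.73 (SE 0.73, adjusted p = 0.000643) and no overlap. PRXQ2 (Glyma.07G048600) rose from 1.15, 1.13, 0.402 and 1.00 CPM to 33.8, 11.2, 2.77 and 9.31 CPM (log2 fold change 3.74, SE 0.76, adjusted p = 0.0047). It lies next to LCL1 in the locus order, and the neighbours moved in opposite directions. Germin-like protein 8 (Glyma.07G038500) rose from 28.7, 21.7, 54.0 and 3.40 CPM to 120.6, 96.5, 110.9 and 78.0 CPM (log2 fold change 2.26, adjusted p = 0.0257), a call lost without plot 1, 2 or 4 (adjusted p = 0.101, 0.0914 and 0.129) and with no replicate block (0.101). With a defensin (Glyma.13G278000, log2 fold change 2.79, adjusted p = 0.0152), named after its values were seen, it made up the 2 rises among 23 defence loci. That share was 8.7%, against 3.08% over all genes and 5.92% over loci with a named match. Inositol oxygenase (Glyma.07G126600), of cell wall sugar synthesis, fell from 110.7, 21.3, 43.8 and 10.9 CPM to 16.9, 4.90, 4.21 and 1.00 CPM (log2 fold change -2.78, SE 0.46, adjusted p = 0.00103). Of 6 hubs of the study's gene network besides PRR5, 2 fell (33.3%, against 4.04% over all genes). The study drew its network from genes that changed strongly over the day in these same libraries, so this share is no separate support. PIP5K (Glyma.03G186300), a lipid kinase, fell from 4.44 to 2.15 CPM (log2 fold change -1.03, adjusted p = 0.00408, and -0.81 without plot 2). SHN2 (Glyma.17G210500) was called lower from 19 counts in all at 14:00 (adjusted p = 0.0395) and was not called with any plot left out (0.067 to 0.15). The aquaporin PIP2;4 (Glyma.11G146500) had 16.0 and 8.43 CPM and just missed the fold threshold (log2 fold change -0.95, adjusted p = 0.0054). In all, 49 of 828 loci with a named match were higher (5.92%, against 3.08% over all genes) and 25 lower (3.02%, against 4.04%). These loci are those with high variation between plots in the study, not a sample of all genes.

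**Figure D4:**
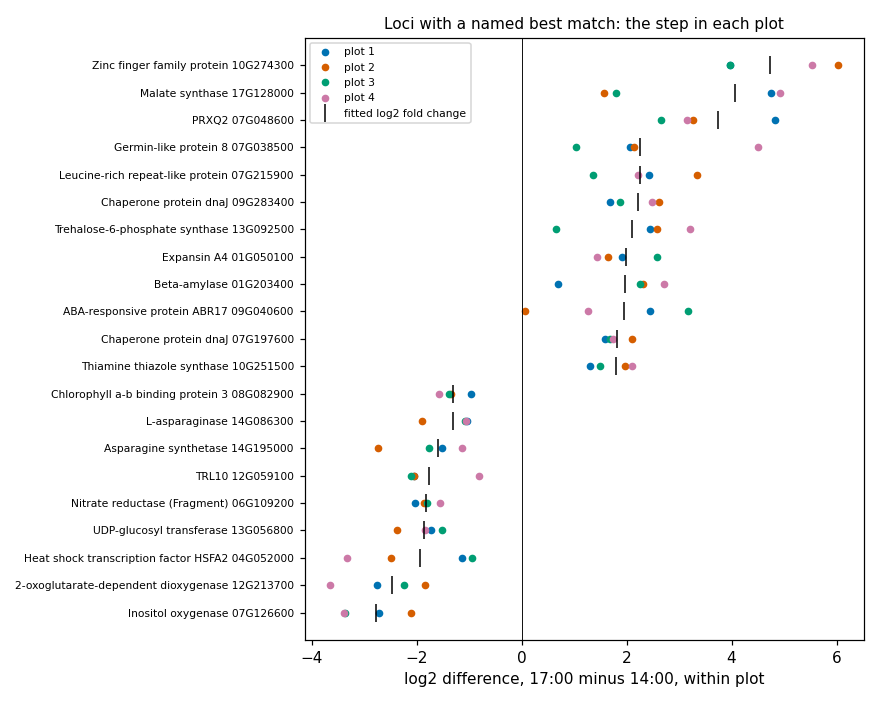
Log2 difference between 17:00 and 14:00 within each plot (coloured points, 1 a plot) and the fitted log2 fold change (black bars) for the 12 largest rises and the 9 falls among loci with a named match. All points of the rises lie right of 0 and all points of the falls left of 0, which the rule for choosing the loci requires, and the plots spread most for malate synthase and germin-like protein 8.

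Copies with the same named match moved alike in some cases and not in others. The 2-oxoglutarate-dependent dioxygenases Glyma.12G213700 and Glyma.13G288000 had log2 fold changes of -2.47 and -2.49. The Protein P21 loci Glyma.05G204600 and Glyma.05G204800 were both called higher, by unequal amounts (1.56 and 3.01). The nitrate transporters Glyma.13G167700 and Glyma.17G139400 had -3.29 (called) and 1.94 (not called). The SPX domain loci Glyma.09G263400 and Glyma.10G229900 differed, at -2.34 (called) and 1.39 (not called). Reads of near-identical copies can be hard to assign, so copies are not taken as independent observations. Called genes lay on all 20 chromosomes, where 2.23% to 4.18% of genes were higher and 2.88% to 5.01% lower. A run of 6 consecutive kept loci on chromosome 8 was called higher, with log2 fold changes of 1.09 to 2.32, and was picked out after the values were seen.

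The morning step, from 8:00 to 11:00, shares no library with the afternoon step. It had 1968 genes higher (5.46%) and 1396 lower (3.87%). Of the 1110 afternoon rises, 149 (13.4%) had fallen in the morning and 46 (4.14%) had risen, which is 10.7% of the morning falls and 2.34% of the morning rises. Of the 1457 afternoon falls, 229 (15.7%) had also fallen in the morning and 109 (7.48%) had risen, which is 16.4% and 5.54% of the morning lists. In the morning 82.4% of the rises and 76.8% of the falls were not called, against 91.5% of the genes not called in the afternoon. Over the 4 times, 963 of the 1110 rises had their highest mean at 17:00 and 144 at 8:00. Of the 1457 falls, 936 had theirs at 8:00, 351 at 11:00 and 170 at 14:00. The genes were picked by their change from 14:00 to 17:00, so these counts are partly set by the call and are a description only. Shares over all genes were not computed for them.

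**Figure D5:**
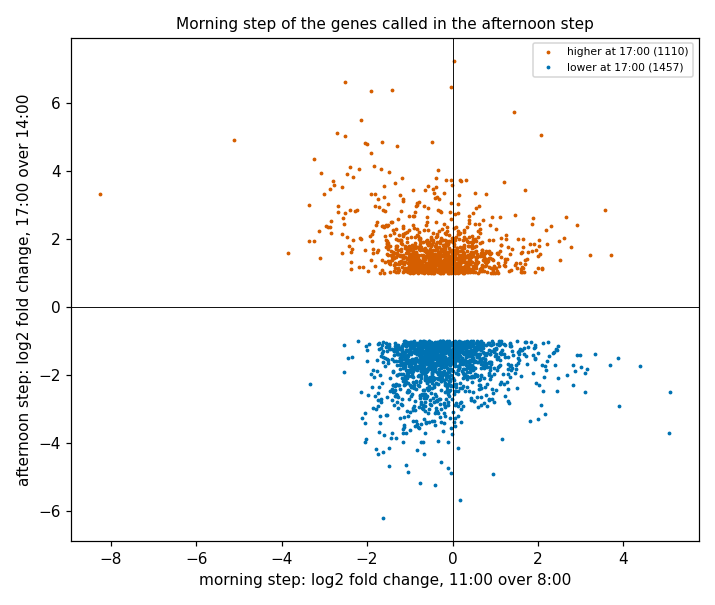
Afternoon step (log2 fold change, 17:00 over 14:00, vertical axis) against the morning step (11:00 over 8:00, horizontal axis) for the 2567 genes called in the afternoon, 1 point a gene. Of the 1110 rises (orange), 149 were called lower and 46 higher in the morning, and of the 1457 falls (blue), 229 were called lower and 109 higher.

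The difference between the steps was tested as 1 contrast. The afternoon step was above the morning step for 2128 genes (5.90%) and below it for 2794 (7.75%), and the former count was 1386 without plot 1 and 1341 without plot 2. ELF4 had the clearest difference among clock loci, with a log2 change of -1.42 in the morning and 6.38 in the afternoon (difference 7.80, adjusted p = 5.38e-05). For TOC1 the steps were -0.36 and 1.32 (difference 1.68, adjusted p = 0.0019) and for LUX -0.19 and 3.36 (difference 3.54, adjusted p = 0.00434, or 0.0608 without plot 1). Jumonji was also above its morning step (difference 4.09, adjusted p = 0.011). The difference was 0.87 for PRR9 (adjusted p = 0.358) and 0.66 for ZEITLUPE (adjusted p = 0.068). It had the other sign for LCL2 (-2.15, adjusted p = 0.000476), LCL1 (-1.89, adjusted p = 0.00194) and PRR5 (-2.50, adjusted p = 0.024). For PRR3, PRR7 and GIGANTEA it also had the other sign. PRR3 rose by 3.05 in the morning and had -0.83 in the afternoon (difference -3.88, adjusted p = 0.000398), PRR7 had 1.66 and -0.06 (difference -1.72, adjusted p = 0.00407), and GIGANTEA 1.71 and 0.01 (difference -1.70, adjusted p = 0.0417, or 0.186 without plot 1, 0.105 without plot 4 and 0.0991 with no replicate block).

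Outside the clock, the chlorophyll a-b binding protein 3 locus Glyma.08G082900 rose by 1.57 in the morning and fell by 1.30 in the afternoon (difference -2.87, adjusted p = 2.02e-05). The locus Glyma.01G115900 rose by 1.28 in the morning (difference -1.21, adjusted p = 0.00746, or 0.0524 without plot 1 and 0.188 with no replicate block). Rubisco activase had a morning step of -0.09 (difference -1.82, adjusted p = 0.000482) and nitrate reductase of 0.42 (difference -2.23, adjusted p = 0.00684). Neither was called in the morning. Beta-amylase had -0.60 and 1.96 (difference 2.56, adjusted p = 0.00412, or 0.0861 with no replicate block). Other loci were called higher in the morning and lower in the afternoon, among them HSFA2 (3.11 and -1.94, difference -5.04, adjusted p = 0.000449), the dioxygenase Glyma.12G213700 (2.11 and -2.47, difference -4.57, adjusted p = 0.000431) and inositol oxygenase (1.31 and -2.78, difference -4.08, adjusted p = 0.000524). The aquaporin PIP2;4 had 2.1 and -0.95 (difference -3.05, adjusted p = 2.6e-05). The hydroxycinnamoyl transferase Glyma.20G045800, of phenylpropanoid synthesis, had 1.15 and -3.87 (difference -5.02, adjusted p = 0.00385). For thiamine thiazole synthase the steps were 2.02 and 1.79 (difference -0.23, adjusted p = 0.854).

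The midday step, from 11:00 to 14:00, shares the 14:00 libraries and had 1192 genes higher (3.31%) and 917 lower (2.54%). Against it the afternoon step was above for 141 genes (0.391%) and below for 282 (0.782%). These counts rested on all 4 plots, since with 1 plot left out they were 2 to 18 and 6 to 66. ELF4 was among the 5 largest differences upward, with steps of 0.23 and 6.38 (difference 6.15, adjusted p = 0.0288). For LCL2 the midday and afternoon steps were -3.56 and -3.75 (difference -0.19, adjusted p = 0.821) and for LUX 3.39 and 3.36 (difference -0.03, adjusted p = 0.976).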

How the data were processed

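Leaf transcripts were measured by RNA-seq in 16 libraries, of which the 8 at 14:00 and 17:00 make the comparison. The authors trimmed reads with Trimmomatic, aligned them with TopHat to the Williams 82 genome and counted them with HTSeq-count, and CASAVA 1.8.2 is named in the submitters' processing notes. The table the authors deposited holds whole-number counts for each gene, not normalized. Strand setting and sequencing lane: not given in the sources used here. Libraries held 14968570 to 25691784 counts (median 21411331), which leaves few reads behind a value far below 1 CPM.

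Every column name matched 1 sample (0 unmatched). A gene was kept if any library had 8 counts of it (36059 of 56044). The quasi-likelihood test of edgeR 4.0.16 (R 4.3.3, two-sided, TMM factors) was fitted to all 16 libraries, with time and plot in the model. A gene was called at a Benjamini-Hochberg adjusted p under 0.05, over all genes kept, and a change of 1 or more on the log2 scale. Standard errors were back-calculated from the F statistic and are approximate, as are the 95% intervals made from them (t distribution with 9 degrees of freedom). Steps per plot used log2 CPM with a prior count of 1. The pairing by replicate number comes from the plots, each with 1 day. Deviations from the time means correlated at 0.179 to 0.519 between the libraries of a plot at 14:00 and 17:00, and had a median of -0.138 between plots. Libraries of 1 time differed by far more than sampling noise, so none was counted as a copy.

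Genes named were the 12 largest rises and falls (called, moving alike in the 4 plots, mean of 10 CPM or more at the higher time), the same among loci with a match (9 falls), the 37 loci listed by identifier, up to 4 called members each way of the keyword lists, and the 5 largest differences each way between steps. Of loci with no name, 4 are given. Names come from the study's text, from the list of loci by identifier and from 931 loci of its gene table, 828 with a match. The RefSeq table matched 0 identifiers, so no sequence or coordinate was used, and chromosome and order were read from the locus identifiers. Members and lists were chosen with earlier results of these data known. Alternatives were DESeq2 1.42.0 size factors and test, limma 3.58.1, other filters, no replicate block, the 8 libraries alone, no fold threshold, each plot left out and, chosen after seeing the data, library totals alone. The fit was tested on simulated data with the same spread for all genes and no plot effect, unlike the real libraries. By adjusted p alone, 9 of 50 genes (18%) with a log2 change of 1 were recovered. At log2 changes of 2, 3 and 4, 50 of 50 were recovered, with 4 false calls in all. Changes near 2-fold were thus often missed there.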

Additional observations from a re-analysis of the deposited data

Results flagged for a closer look

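Several results stood out because 1 of 4 plots lay far from the other 3 at 14:00 or 17:00. Among 77 loci named, 154 groups of 4 libraries were tested, 23 were flagged by a gap test for which chance flags about 1 in 20 groups, and 18 of the 23 were plot 4. Loci with a named match are those the study lists for high variation between plots. No cause was tested.

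Plot 4 was the highest library for malate synthase (Glyma.17G128000) at both times, with 2.05 CPM at 14:00 and 63.1 CPM at 17:00, and for asparagine synthetase (Glyma.14G195000), with 88.8 and 40.5 CPM. At 14:00 it stood apart as the highest for HSFA2 (Glyma.04G052000) at 40.0 CPM, for the UDP-glucosyl transferase Glyma.13G056800 at 149 CPM, where the others had 23.5 to 40.3 CPM, and for the fatty acyl-CoA reductase Glyma.11G185000 at 1.51 CPM. At 17:00 it stood apart as the highest for trehalose-6-phosphate synthase (Glyma.13G092500) at 28.9 CPM, TRL10 (Glyma.12G059100) at 75.7 CPM, the 5NG4-like Glyma.13G077800 at 68.9 CPM, the ethylene response factors Glyma.10G194200 and Glyma.10G036700 at 27.7 and 1.96 CPM, and the NAC gene Glyma.08G173400 at 35.0 CPM, where the others had 4.17 to 5.75 CPM.

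Plot 4 was the lowest library for nitrate reductase (Glyma.06G109200) at 216 CPM, the chlorophyll a-b binding protein 3 locus Glyma.08G082900 at 1380 CPM and Jumonji (Glyma.11G130600) at 38.2 CPM, all at 17:00, and for LCL1 (Glyma.07G048500) at 81.3 CPM and SHN2 (Glyma.17G210500) at 0.116 CPM, both at 14:00. In other plots, the highest values were those of PRR5 (Glyma.03G261300) in plot 1 at 14:00 (42.5 CPM), the transferase Glyma.20G045800 in plot 1 at 14:00 (14.9 CPM), Glyma.15G229400 in plot 2 at 14:00 (23.1 CPM), and the Rubisco binding protein loci Glyma.11G195900 and Glyma.15G250500 in plot 3 at 17:00 (358 and 260 CPM, where the others had 205 to 228 and 186 to 197 CPM).

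The afternoon step differed from the morning step for 2128 genes upward and 2794 downward, and from the midday step for 141 and 282 (edgeR contrasts). Only some of the named loci are listed here. Those chosen whose afternoon step was above their morning step were ELF4 (by 7.80 on the log2 scale), LUX (3.54), beta-amylase (2.56) and TOC1 (1.68). Those below it were HSFA2 (-5.04), the transferase Glyma.20G045800 (-5.02), the dioxygenase Glyma.12G213700 (-4.57), inositol oxygenase (-4.08), PRR3 (-3.88), PIP2;4 (-3.05), Glyma.08G082900 (-2.87), nitrate reductase (-2.23), Rubisco activase (-1.82), PRR7 (-1.72), GIGANTEA (-1.70) and Glyma.01G115900 (-1.21). Further named loci differed too, among them Jumonji (4.09) upward and LCL2 (-2.15), LCL1 (-1.89) and PRR5 (-2.50) downward. ELF4 was also above its midday step (by 6.15).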

How the results depend on the processing

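Genes higher at 17:00 numbered 1110, and 716 with no replicate block, 2301 with no fold threshold and 591 to 907 with 1 plot left out. Genes lower numbered 1457, and 2958 with no fold threshold and 1259 to 1412 with 1 plot left out. Of the rises, 98% were also called with DESeq2 size factors, 94.1% by the DESeq2 test, 88.1% by limma and 63.2% with no replicate block, and of the falls 99.9%, 99%, 97.7% and 84.5%. Differences from the morning step numbered 2128 upward (3285 with no fold threshold, 1341 to 1985 with 1 plot left out) and 2794 downward (4347 with no fold threshold). Differences from the midday step numbered 141 upward and 282 downward, 566 and 738 by the DESeq2 test, 11 and 65 with no replicate block, 2 to 18 and 6 to 66 with 1 plot left out, and 93 upward with library totals alone, a scaling that was chosen after seeing the data and moved the median gene from -0.03 to -0.14 in that contrast and from 0.02 to 0.11 in the afternoon step. The step differences could not be fitted on the 8 libraries alone. The cause of these shifts was not tested, except that leaving a plot out leaves fewer samples.

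Of 81 named loci called, 0 changed direction under any alternative. With no replicate block 24 lost their call, with limma 8, with 1 plot left out 10 to 21, and with either DESeq2 alternative 0. Loci that were not called and lay near 0 changed sign: GIGANTEA (Glyma.20G170000) was -0.03 with limma and with no replicate block, -0.04 with the 8 libraries alone and -0.14 and -0.03 without plots 2 and 3, PRR7 (Glyma.10G048100) was 0.05 with library totals alone, ZEITLUPE (Glyma.09G056100) was -0.04 without plot 4 (-0.04 to 0.14 with 1 plot left out), Glyma.01G115900 was -0.01 and -0.02 without plots 1 and 4 (-0.02 to 0.10), and the YABBY locus Glyma.17G138200 was -0.13 and -0.08 without plots 1 and 2 (-0.13 to 0.33).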
